A study of Mus musculus with 6 samples.

Results

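Blood vessels in mouse tumours of small cell lung cancer were followed here through 32 genes: markers of endothelial cells, the transcription factors and receptors that define these cells, and ligands that act on them. The 32 were fixed by name and each was matched to 1 Ensembl gene by its symbol, out of 56980 genes in the deposited count table. All 32 had reads in every library, from 13 (Aplnr in control 1) to 3974 (Vwf in control 2), and none of the 32 was lost to the low-count filter, so all were tested. Messenger RNA was sequenced from 3 control tumours and 3 tumours with Keap1 knockout, all from a mouse lung tumour model labelled QKO and taken about 4 months after a virus was injected. KEAP1 directs NRF2, a regulator of antioxidant genes, to be degraded. The labels do not spell out QKO, the way Keap1 was inactivated, the age or strain of the mice, or whether each sample is from its own mouse. The p-values therefore rest on differences among these samples, part of which may be technical.

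Endothelial cells line every blood vessel, and tumours depend on them for supply. Vascular endothelial growth factors signal through 3 related receptor kinases: KDR carries most of the growth signal, FLT1 binds its ligands tightly and can act as a decoy, and FLT4 serves lymphatic and sprouting vessels. Angiopoietins act on the kinase TEK and set how stable a vessel is, and in the lung the capillary bed makes endothelial cells a large share of the normal tissue.

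Levels are in CPM, the usual count-per-total unit of RNA-seq, with each library's total adjusted by the TMM method. Total counts per library ran from 18731515 to 23759892. Keap1 transcript itself stood at 58.7 to 78.4 CPM in controls, against 67.5 to 93.0 CPM in knockouts, and edgeR's quasi-likelihood test gave it an adjusted p of 0.564. A disrupted gene can still be transcribed. Markers of the labelled tumour type were high in 1 of 6 libraries: the neuroendocrine genes Chga, Insm1 and Syp stood at 82.5 to 948 CPM in control 3 and at no more than 18.0 CPM in any other library. Insm1 had 0 reads in knockouts 2 and 3 and Chga 0 in knockout 3, where a count of 0 allows up to 0.137 CPM in knockout 2 and 0.132 CPM in knockout 3. The 6 fibroblast markers summed to 432, 33900 and 4940 CPM in controls 1 to 3 and to 375 to 1020 CPM in knockouts, and the 13 markers of pericytes and smooth muscle, the cells that wrap vessels, to 311, 1060 and 456 CPM in controls, against 158 to 335 CPM in knockouts. Both sums were highest in control 2. The fibroblast sum there was mostly Col1a1 (20400 CPM) and Col1a2 (12100 CPM), whereas Col3a1 (2290 against 998 CPM) and Dcn (238 against 57.1 CPM) were higher in control 3 than in control 2, as was the pericyte gene Rgs5 (164 against 80.3 CPM).

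**Figure D1:**
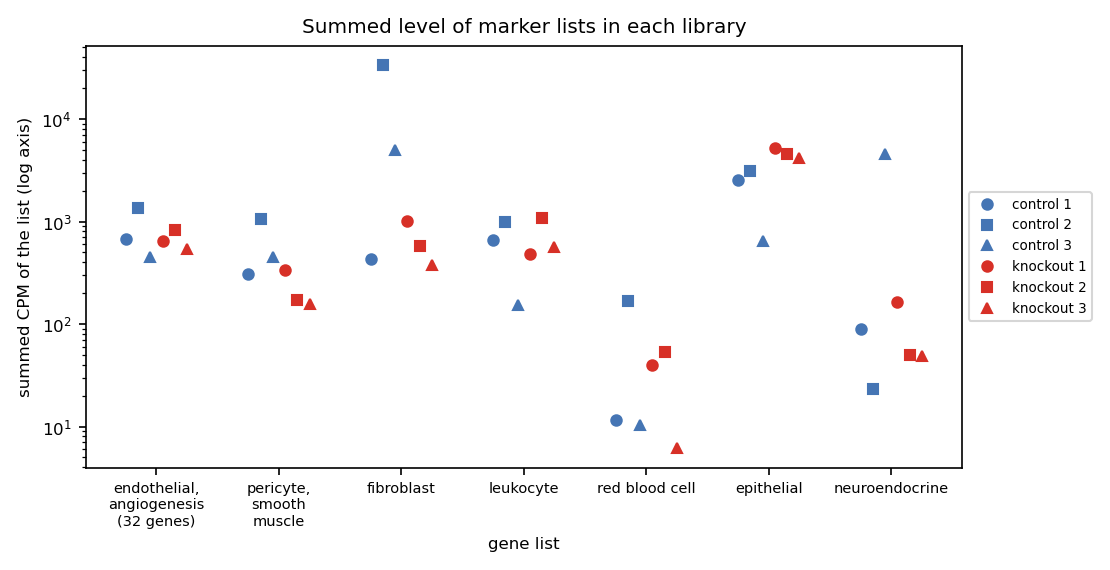
Summed CPM of each marker list (log axis) in the 3 control libraries (blue) and the 3 Keap1 knockout libraries (red). Control 2 is highest for the 32 endothelial and angiogenesis genes (1363 CPM), for the pericyte and smooth muscle list and for fibroblast markers, and control 3 stands apart in neuroendocrine markers.

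Endothelial transcripts varied more among the control tumours than between the genotypes. The 32 genes together summed to 677.7, 1363 and 449.4 CPM in controls 1 to 3 and to 653.0, 823.0 and 545.3 CPM in knockouts 1 to 3. The control mean was 830 ± 475 CPM and the knockout mean 674 ± 140 CPM (SD, n = 3 each), and all 3 knockouts lay between the lowest and highest control. In bulk tissue, fewer endothelial cells and less RNA per cell cannot be told apart. For 22 of the 32 genes the highest library was control 2, and for 17 the lowest was control 3. Measured gene by gene against the median of the other 5 libraries, the median member was 1.34 log2 units higher in control 2 and 0.45 higher in knockout 2, and its value was -0.59 in control 3 and -0.47 in knockout 3. The same measure over all tested genes was -0.014 in control 2 and -0.03 in control 3. Among controls the median standard deviation of log2 CPM was 1.01 for the members and 0.504 for all tested genes, and among knockouts it was 0.439 and 0.201.

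**Figure D2:**
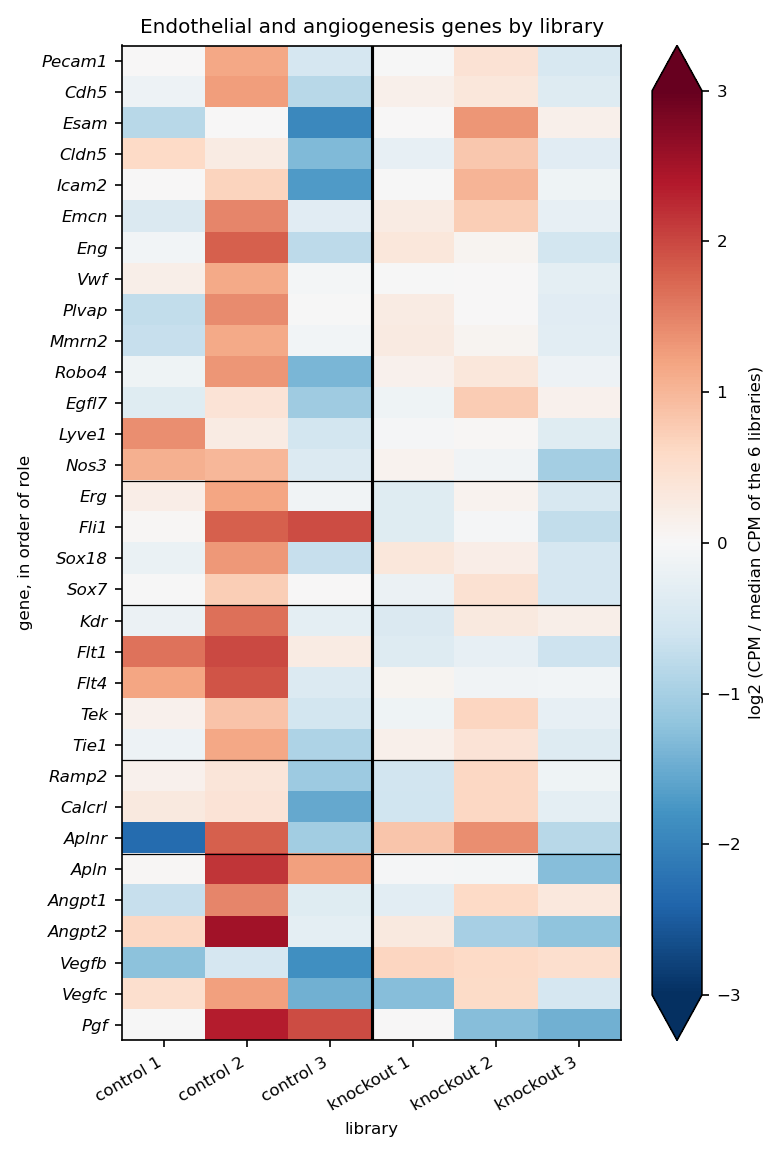
Each row is 1 of the 32 genes, grouped by role, and each column 1 library; colour is the log2 ratio of CPM to the median of the 6 libraries. The column of control 2 is red for most genes, with Vegfb as the clearest exception.

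Each library had its own profile. Control 1 was highest for 2 genes, Lyve1 and Nos3, and lowest for 5, with a median log2 difference from the other libraries of -0.0024. Control 2 was lowest for 0 genes, and its share of reads in the 32 genes, 0.136% of the scaled total, exceeded the 0.0449% to 0.0823% of the other libraries. Control 3 was highest for 1 gene, Fli1. Knockout 1 was highest for Vegfb and lowest for Kdr, with a median difference of -0.0096, near that of control 1 on this measure alone. Single genes differed between these libraries, with Flt1 at 22.6 CPM in knockout 1 and 91.4 CPM in control 1, and Vegfb at 97.5 and 26.7 CPM. Knockout 2 was highest for 6 genes, Esam, Cldn5, Icam2, Egfl7, Ramp2 and Calcrl, and lowest for 0. Knockout 3 was highest for 0 genes and lowest for 9. The 6 genes that peaked in knockout 2 are of junctions, adhesion, a secreted protein and the adrenomedullin receptor.

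None of the 32 genes passed the test between genotypes. With edgeR (quasi-likelihood test, Benjamini-Hochberg adjustment over 17901 genes), 0 members were higher and 0 lower at an adjusted p below 0.05, where 2.42% of all tested genes were higher and 1.89% lower in the knockout. At an unadjusted p below 0.05 there were 5 members (15.6%), against 30.7% of all tested genes: Vegfb above and Flt1, Fli1, Apln and Pgf below the controls. DESeq2 called these 5, 1 higher and 4 lower, against 11.8% and 14.8% of the genes it tested, and limma voom called Vegfb alone. In the authors' deposited table, Vegfb was higher and Flt1, Fli1 and Pgf were lower at an adjusted p below 0.05, against 7.10% and 10.7% of the genes listed there, and Apln had an adjusted p of 0.0523. Groups did not overlap for 1 higher member (Vegfb, 3.12% of the 32) and 3 lower ones (Flt1, Fli1 and Apln, 9.38%), against 21.5% and 19.1% of all tested genes. Both shares were below the background.

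The sign of the list rested on 1 library. The median log2 fold change (knockout minus control) of the 32 genes was -0.33, with 24 negative and 8 positive values, and that of all tested genes was -0.08. Without control 2 the members' median was 0.34, and 13 of the 24 negative values turned positive, among them those of Pecam1, Cdh5, Tie1, Kdr, Eng and Plvap.

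**Figure D3:**
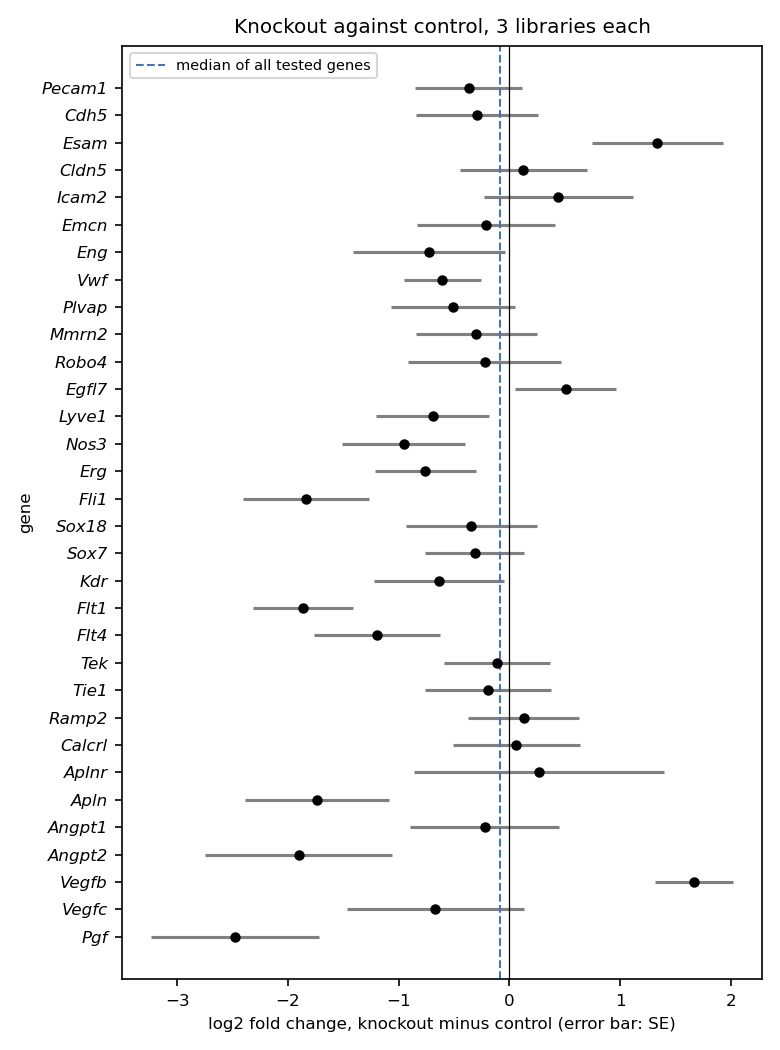
Log2 fold change of each gene, knockout minus control, with its SE as the error bar (edgeR, 3 libraries per group); the dashed line is the median of all tested genes (-0.08). Most genes lie within 1 log2 unit of zero, Vegfb and Esam lie to the right, and Pgf, Angpt2, Flt1, Fli1 and Apln lie furthest to the left.

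Among the 14 surface, junction and matrix genes, 4 widely used endothelial markers, Pecam1, Cdh5, Eng and Robo4, were highest in control 2 and lowest in control 3. Pecam1 (CD31, the platelet and endothelial adhesion molecule, ENSMUSG00000020717) stood at 42.2, 93.6 and 29.3 CPM in controls 1 to 3, against 41.5, 56.5 and 30.1 CPM in knockouts 1 to 3. Cdh5 (VE-cadherin of the endothelial adherens junction, ENSMUSG00000031871) stood at 34.5, 90.8 and 21.5 CPM in controls, against 42.4, 48.3 and 29.4 CPM in knockouts. For both genes every knockout lay within the range of the controls, with log2 fold changes of -0.37 ± 0.48 and -0.29 ± 0.55 (SE). Eng (endoglin, a co-receptor for BMP and TGF-beta ligands) was at 31.9, 116 and 19.6 CPM in controls, against 42.7, 35.5 and 22.8 CPM in knockouts. Robo4 (an endothelial guidance receptor that stabilises vessels) was at 6.80, 18.9 and 2.89 CPM in controls, against 8.25, 9.48 and 6.77 CPM in knockouts. In both, control 2 stood clear of every other library and the knockouts again lay inside the control range.

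Genes of clotting, fenestrae and matrix were lowest in other libraries. Vwf (von Willebrand factor, the clotting protein stored in endothelial granules and in platelets) stood at 99.7, 197 and 84.8 CPM in controls, against 88.6, 89.3 and 72.8 CPM in knockouts, so that control 2 was apart and the other 5 libraries were close together. Its log2 fold change was -0.61 ± 0.35 (SE, adjusted p = 0.283 by edgeR) and was -0.12 without control 2. Of the 6 platelet markers 1, Pf4, was highest in control 2 as Vwf was, at 10.3 CPM against 2.01 to 3.82 CPM elsewhere. Itga2b was lowest there, at 2.38 CPM against 2.61 to 5.80 CPM, Gp9 had 0 reads in 4 libraries, and Ppbp was at 618 CPM in control 1 and at 0.0996 to 0.644 CPM in the others. The platelet sum was 629 CPM in control 1 and 6.85 to 15.1 CPM elsewhere. The part of platelets in the Vwf values was not tested. Plvap (the diaphragm protein of fenestrae and caveolae) had 24.3, 109 and 40.6 CPM in controls, against 48.7, 41.1 and 32.2 CPM in knockouts. Emcn (endomucin, a sialoglycoprotein of venous and capillary endothelium) had 6.14, 22.6 and 6.52 CPM in controls, against 9.79, 13.8 and 6.94 CPM in knockouts. Mmrn2 (an endothelial matrix glycoprotein) had 3.86, 13.7 and 5.88 CPM in controls, against 7.46, 6.55 and 5.01 CPM in knockouts. In these 3 genes the lowest library was control 1, not control 3.

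Junction genes Esam and Cldn5, together with Icam2 and Egfl7, peaked in knockout 2 instead. Esam (an immunoglobulin-type adhesion protein of tight junctions, ENSMUSG00000001946) stood at 19.4, 34.6 and 9.01 CPM in controls, against 34.6, 86.2 and 38.5 CPM in knockouts. The groups met at 34.6 CPM, and the log2 fold change of 1.34 ± 0.59 (SE) had an adjusted p of 0.187 by edgeR. Cldn5 (claudin 5, which seals endothelial tight junctions) was at 29.9, 23.6 and 7.92 CPM in controls, against 16.8, 34.6 and 15.7 CPM in knockouts. Icam2 (a leukocyte-binding adhesion molecule) was at 6.19, 9.76 and 1.89 CPM in controls, against 6.15, 12.5 and 5.63 CPM in knockouts. Egfl7 (a protein secreted by endothelial cells) was at 15.6, 26.6 and 9.46 CPM in controls, against 18.2, 33.6 and 21.8 CPM in knockouts. All 4 were lowest in control 3, and all 4 had positive log2 fold changes, from 0.13 to 1.34, that did not pass.

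Lyve1 and Nos3 were highest in control 1. Lyve1 (a hyaluronan receptor of lymphatic endothelium, also made by some macrophages) stood at 48.1, 21.5 and 12.5 CPM in controls, against 17.9, 18.6 and 14.3 CPM in knockouts. Nos3 (endothelial nitric oxide synthase, which makes the vessel-relaxing gas nitric oxide, ENSMUSG00000028978) stood at 5.02, 4.81 and 1.79 CPM in controls, against 2.56, 2.24 and 1.19 CPM in knockouts. For Nos3 controls 1 and 2 lay above all knockouts and control 3 among them, with a log2 fold change of -0.95 ± 0.56 (SE, adjusted p = 0.288 by edgeR).

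Of the 4 transcription factors, Fli1 had a pattern of its own. Fli1 (an ETS factor of endothelial and blood cells, ENSMUSG00000016087) stood at 5.68, 19.2 and 21.4 CPM in controls 1 to 3, against 4.29, 5.36 and 3.30 CPM in knockouts 1 to 3. Controls 2 and 3 were high, control 1 was just above the highest knockout, and the groups did not overlap. The log2 fold change was -1.84 ± 0.57 (SE, adjusted p = 0.101 by edgeR), and the difference passed without control 1 (adjusted p of 0.0458 by edgeR) and by DESeq2 (0.00915). Fli1 is also a gene of blood cells, and of the 6 leukocyte markers 2, Ptprc and Csf1r, were lower in every knockout than in every control, while the other 4 overlapped and Lyz2 and Cd79a had positive log2 fold changes. Summed, these 6 were lowest in control 3, the library where Fli1 was highest and neuroendocrine genes were high. That sum was mostly Lyz2, which made up 90.4 of 155 CPM in control 3 and 1000 of 1080 CPM in knockout 2. Ptprc stood at 17.2 CPM in control 3, against 9.98 to 16.4 CPM in knockouts. The part of other cells in the Fli1 values was not tested.

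The other factors were highest in control 2, as the pan-endothelial markers were. Erg (a second ETS factor, more restricted to endothelium) stood at 8.88, 17.5 and 7.12 CPM in controls, against 6.01, 8.29 and 5.49 CPM in knockouts. Sox18 (a SOX factor of developing arteries and lymphatics) stood at 9.90, 27.9 and 6.97 CPM in controls, against 14.3, 13 and 8 CPM in knockouts. Sox7, a related factor, stood at 3.40, 5.75 and 3.44 CPM in controls, against 3.03, 4.67 and 2.42 CPM in knockouts. In each of the 3 the groups overlapped, with log2 fold changes of -0.76 ± 0.46, -0.35 ± 0.59 and -0.31 ± 0.44 (SE).

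All 5 receptor tyrosine kinases were highest in control 2, and 2 of the 3 growth factor receptors, Flt1 and Flt4, were also high in control 1. Flt1 (ENSMUSG00000029648) stood at 91.4, 117 and 35.1 CPM in controls, against 22.6, 25.0 and 19.3 CPM in knockouts. Every control lay above every knockout, the control mean (81.1 ± 41.8 CPM, SD, n = 3) was 3.64 times the knockout mean (22.3 ± 2.82 CPM, SD, n = 3), and the log2 fold change was -1.86 ± 0.45 (SE, adjusted p = 0.0673 by edgeR). It passed without control 3 (adjusted p of 0.00859 by edgeR) and by DESeq2 (0.00174). Gene counts do not separate the membrane-bound from the soluble FLT1 isoform. Flt4 (ENSMUSG00000020357) stood at 22.9, 37.8 and 7.62 CPM in controls, against 10.7, 9.43 and 9.63 CPM in knockouts. Control 3 lay below the knockouts and the other controls above them, with a log2 fold change of -1.20 ± 0.57 (SE, adjusted p = 0.211 by edgeR), and it was -1.61 without control 3 (adjusted p of 0.0235 by edgeR) and -0.61 without control 2 (0.485).

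For Kdr, Tek and Tie1 the groups overlapped. Kdr stood at 16.4, 57.9 and 15.2 CPM in controls, against 13.8, 22.8 and 20.9 CPM in knockouts. Tek, the angiopoietin receptor, stood at 10.3, 17.0 and 6.42 CPM in controls, against 8.49, 14.7 and 7.91 CPM in knockouts. Tie1, its partner kinase, stood at 17.7, 44.1 and 10.3 CPM in controls, against 21.8, 26.2 and 15.0 CPM in knockouts. Their log2 fold changes were -0.64 ± 0.59, -0.11 ± 0.48 and -0.19 ± 0.57 (SE). Within a library, reads of Flt1 per read of Kdr, corrected for exon length, numbered 3.72, 1.35 and 1.54 in controls and 1.09, 0.73 and 0.619 in knockouts, a ratio computed after these values were seen.

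The receptor for adrenomedullin, made of CALCRL and its partner RAMP2, was measured through both genes. Calcrl stood at 43.9, 47.8 and 12.5 CPM in controls, against 23.8, 55.6 and 29.6 CPM in knockouts. Ramp2 stood at 16.8, 19.9 and 7.22 CPM in controls, against 10.3, 23.6 and 14.2 CPM in knockouts. Both were highest in knockout 2 and lowest in control 3, and their log2 fold changes were 0.06 ± 0.58 and 0.13 ± 0.50 (SE). Aplnr, the receptor for the peptide apelin, was the most variable member among controls, at 0.660, 11.4 and 1.59 CPM, a 17.3-fold range, and stood at 5.87, 8.70 and 1.85 CPM in knockouts. It rested on only 13 reads in control 1, and its log2 fold change of 0.27 ± 1.13 (SE) was the least precise of the 32.

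Ligands held both the highest and the lowest log2 fold changes of the 32. Vegfb, a growth factor that binds FLT1 and not KDR and that is made by many cell types (ENSMUSG00000024962), stood at 26.7, 44.2 and 17.4 CPM in controls, against 97.5, 94.3 and 88.7 CPM in knockouts. Every knockout was at least as high as 88.7 CPM, above the highest control, and the 3 knockouts were close to each other. The means were 29.5 ± 13.6 and 93.5 ± 4.45 CPM (SD, n = 3 each), a 3.18-fold difference, with a log2 fold change of 1.67 ± 0.35 (SE, adjusted p = 0.0553 by edgeR). It passed by DESeq2 (adjusted p of 0.000756) and limma voom (0.0394), and by edgeR without control 2 (adjusted p of 0.0487) and without control 3 (0.0252), and over 13 alternatives its adjusted p ran from 0.000756 to 0.236. Epithelial keratin genes had the same order of groups: Krt8 stood at 200 to 1130 CPM in controls, against 1760 to 2200 CPM in knockouts, and Krt18 at 109 to 511 and 1060 to 1260 CPM, whereas Epcam and Cdh1 overlapped. Their part in the Vegfb values was not tested.

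Pgf (placental growth factor, the other ligand of FLT1 alone, ENSMUSG00000004791) ran the opposite way. It stood at 4.52, 23.3 and 17.7 CPM in controls, against 4.62, 1.88 and 1.67 CPM in knockouts. Controls 2 and 3 were above every knockout and control 1 was level with knockout 1, so the groups overlapped. The log2 fold change was -2.48 ± 0.76 (SE, adjusted p = 0.0980 by edgeR), and DESeq2 gave an adjusted p of 0.00533. Within a library, reads of Pgf per read of Vegfb, corrected for exon length, numbered 0.0934, 0.291 and 0.561 in controls and 0.0262, 0.0110 and 0.0104 in knockouts. This ratio sets the lowest log2 fold change of the 32 against the highest, and it was chosen after the values were seen, so its separation of the groups follows from that choice.

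Vegfc, a ligand of FLT4, was low throughout, at 3.86, 6.34 and 0.996 CPM in controls, against 1.12, 4.03 and 1.89 CPM in knockouts. Its log2 fold change was -0.67 ± 0.80 (SE, adjusted p = 0.597 by edgeR).

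Apln (apelin, a peptide that sprouting endothelial tip cells make, ENSMUSG00000037010) stood at 6.45, 27.8 and 14.8 CPM in controls, against 6.11, 6 and 2.59 CPM in knockouts. The groups did not overlap, although control 1 and knockouts 1 and 2 nearly met. The log2 fold change was -1.74 ± 0.65 (SE, adjusted p = 0.138 by edgeR), and DESeq2 gave an adjusted p of 0.0327. Without control 2 the edgeR value was -1.09, with an adjusted p of 0.281. Its receptor gene Aplnr did not follow the same order: in a ratio also computed after the values were seen, length-corrected reads of Apln per read of Aplnr numbered 11.5, 2.87 and 10.9 in controls and 1.22, 0.81 and 1.65 in knockouts.

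The angiopoietins differed from each other. Angpt2 (stored by endothelial cells and able to oppose TEK signalling, ENSMUSG00000031465) stood at 11.5, 42.9 and 6.07 CPM in controls, against 9.14, 3.75 and 3.25 CPM in knockouts. Control 2 was 7.07 times the median of the other 5 libraries, the largest such ratio among the 32 genes, and the log2 fold change of -1.90 ± 0.85 (SE) had an adjusted p of 0.188 by edgeR. Without control 2 it was -0.69. Angpt1 (the TEK agonist, made mainly by cells around the vessel) stood at 3.10, 13.9 and 3.88 CPM in controls, against 4.01, 7.60 and 6.24 CPM in knockouts, giving a log2 fold change of -0.22 ± 0.67 (SE). Length-corrected reads of Angpt2 per read of Angpt1 numbered 5.25, 4.36 and 2.21 in controls and 3.21, 0.697 and 0.735 in knockouts, and knockout 1 lay among the controls. This ratio too was computed after the values were seen.

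**Figure D4:**
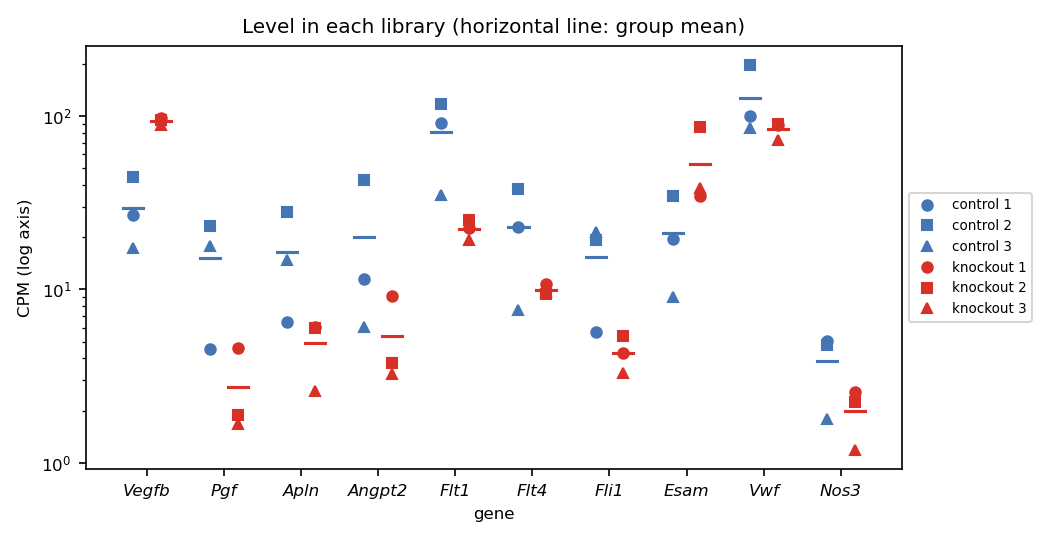
CPM (log axis) of 10 genes in each library, controls in blue and knockouts in red, with a horizontal line at each group mean; symbols mark the sample number. The 3 Vegfb knockout points lie together near 93.5 CPM above all controls, the Flt1 knockout points lie below all controls, and the controls of Pgf, Apln and Angpt2 are widely spread.

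Per length of exon, the order of the 32 genes differed between the groups at the top. Plvap led in controls with 29.1 CPM per kilobase, followed by Vegfb with 18.4, Cldn5 with 14.5 and Eng with 13.8. In knockouts Vegfb led with 58.3 CPM per kilobase, followed by Plvap with 20.5, Esam with 18.5 and Cldn5 with 15.8. Nos3 was lowest in both, with 0.938 and 0.484. Given the spread among controls, the order of neighbours there is not resolved.

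Set against the amount of endothelial transcript in each library, 10 of the other genes separated the genotypes. For this, chosen after the values were seen, each level was divided by the geometric mean of Pecam1, Cdh5 and Tie1, which was 29.5, 72.1 and 18.6 CPM in controls 1 to 3, against 33.7, 41.5 and 23.7 CPM in knockouts 1 to 3. The knockouts lay within the control range on this core level. Tie1, 1 of the 3 core genes, itself lay higher relative to the core in every knockout, at 0.553 to 0.612 in controls against 0.631 to 0.646 in knockouts. Of the remaining 29 genes, 7 (24.1%) were lower in every knockout than in every control on this relative scale, and 3 (10.3%) were higher. Of all tested genes, 7.20% were lower and 10.8% higher on this scale, against 19.1% and 21.5% in plain CPM. In plain CPM, 9.38% of all members were lower (Flt1, Fli1 and Apln) and 3.12% higher (Vegfb), so these genes were apart before the division too. The core varied widely among controls, and dividing by it adds that spread to genes that do not follow it. The shares of members and of all tested genes on this scale therefore cannot be compared. Relative Flt1 was 3.10, 1.62 and 1.88 in controls and 0.670, 0.602 and 0.816 in knockouts. Relative Angpt2 was 0.390, 0.594 and 0.326 in controls and 0.271, 0.0905 and 0.137 in knockouts, and relative Erg was 0.301, 0.243 and 0.382 against 0.178, 0.200 and 0.232. Fli1, Flt4, Apln and Pgf were the other lower genes, with Flt4 apart by the narrowest gap, 0.408 in control 3 against 0.406 in knockout 3. The 3 higher genes were Vegfb, at 0.906, 0.613 and 0.934 in controls and 2.89, 2.27 and 3.74 in knockouts, Esam, at 0.657, 0.480 and 0.483 against 1.03, 2.08 and 1.62, and Egfl7, whose gap was narrow, 0.529 in control 1 against 0.539 in knockout 1. Most other markers, such as Sox18, Emcn, Robo4, Tek and Kdr, overlapped on this scale.

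**Figure D5:**
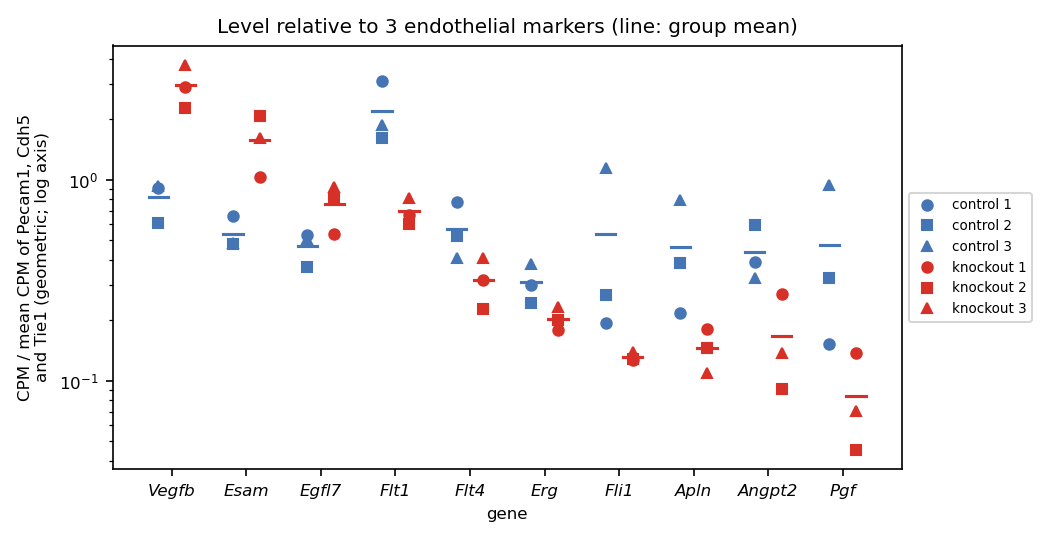
Level of 10 genes divided by the geometric mean of Pecam1, Cdh5 and Tie1 in the same library (log axis), controls in blue and knockouts in red, with a line at each group mean. Vegfb, Esam and Egfl7 lie higher in every knockout, and Flt1, Flt4, Erg, Fli1, Apln, Angpt2 and Pgf lie lower.

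Promoters are shown for Vegfb and Flt1, the 2 members with the smallest p, and for Robo4 and Emcn, 2 endothelial markers whose ratio to the core overlapped between groups. RefSeq promoters (GRCm38.p6) were at hand for 16 of the 32 genes, and the 250 bases before the start are printed 5′ to 3′. Capitals mark the letters AGGAAG or CAGGAAG, cores that ETS factors such as ERG and FLI1 bind, and TGACGTCA, the cyclic AMP response element, on either strand. The windows are chr19:6987652-6987901 (minus strand) for Vegfb, chr5:147726012-147726261 (minus) for Flt1, chr9:37401722-37401971 (plus) for Robo4 and chr3:137340828-137341077 (plus) for Emcn.
Vegfb: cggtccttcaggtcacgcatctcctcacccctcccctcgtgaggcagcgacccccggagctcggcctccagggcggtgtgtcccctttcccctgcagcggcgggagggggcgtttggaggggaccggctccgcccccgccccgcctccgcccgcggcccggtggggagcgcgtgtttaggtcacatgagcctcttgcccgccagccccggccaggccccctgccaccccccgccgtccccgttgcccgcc
Flt1: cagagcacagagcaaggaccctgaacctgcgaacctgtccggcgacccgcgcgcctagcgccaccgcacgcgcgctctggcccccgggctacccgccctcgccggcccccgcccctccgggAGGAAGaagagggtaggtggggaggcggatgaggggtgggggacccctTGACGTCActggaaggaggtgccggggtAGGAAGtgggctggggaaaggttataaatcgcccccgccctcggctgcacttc
Robo4: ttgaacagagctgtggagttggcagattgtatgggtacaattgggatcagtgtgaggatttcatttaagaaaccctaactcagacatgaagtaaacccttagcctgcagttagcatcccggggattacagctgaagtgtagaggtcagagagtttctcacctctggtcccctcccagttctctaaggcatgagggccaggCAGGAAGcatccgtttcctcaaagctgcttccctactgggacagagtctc
Emcn: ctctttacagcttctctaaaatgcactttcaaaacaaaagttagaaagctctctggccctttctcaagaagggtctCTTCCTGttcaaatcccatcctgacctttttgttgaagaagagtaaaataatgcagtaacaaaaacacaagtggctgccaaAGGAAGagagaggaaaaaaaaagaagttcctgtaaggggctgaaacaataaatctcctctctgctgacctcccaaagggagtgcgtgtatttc

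The Flt1 window held AGGAAG at 129 to 124 and 53 to 48 bases before the start and TGACGTCA at 81 to 74 bases before it. Robo4 held CAGGAAG at 50 to 44 bases and Emcn at 174 to 168 bases before the start, each including AGGAAG, and Emcn held another AGGAAG at 93 to 88 bases. The Vegfb window, 76.4% G or C, held none of the searched letters. Of the 16 genes with a promoter, 9 had AGGAAG, in 10 of their 21 windows, against 29.5% of 32851 windows of this length. CAGGAAG, which always contains AGGAAG, was in 7 windows (10.8% of all), TGACGTCA in 1 (1.55%), and TGACNNNGC, the core of the antioxidant response element that NRF2 binds, in 4, of Egfl7, Kdr, Pgf and Vegfc (10.2%). CCGGAAG and the hypoxia response core ACGTG were in none, against 6.91% and 16.6% of all windows. AGGAAG and TGACGTCA were added after the sequences were read, and a match is only a description of the letters.

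Of 23 further endothelial genes 0 passed by edgeR, with 7 at an unadjusted p below 0.05, 2 higher and 5 lower, beside 30.7% of all tested genes. Their median log2 fold change was -0.32, beside -0.33 for the 32 and -0.08 for all tested genes. Sox17, the third SOX factor of its subfamily and also a factor of endoderm, stood apart from Sox7 and Sox18, at 6.45, 8.92 and 1.99 CPM in controls, against 23.8, 60.6 and 52.6 CPM in knockouts, giving a log2 fold change of 2.98 ± 0.66 (SE, adjusted p = 0.0591 by edgeR). Car4 (a carbonic anhydrase of lung capillaries) stood at 1.27, 2.23 and 0.249 CPM in controls, against 4.10, 14.7 and 4.92 CPM in knockouts, with an adjusted p of 0.123 by edgeR.

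All 14 genes of arterial, venous and tip cells had negative log2 fold changes, with a median of -1.12, where 53.9% of all tested genes were negative. The highest library was control 2 for 9 of the 14, control 1 for 3 and control 3 for 2. How far the sign rested on control 2 was not tested for this list. By edgeR 0 of the 14 passed, and 5 had an unadjusted p below 0.05, against 30.7% of all tested genes. Hey1, a Notch effector of arteries, stood at 37.1 ± 21.0 CPM in controls, against 8.48 ± 1.32 CPM in knockouts, and Bmpr2, a BMP receptor, at 197 ± 35.6 and 114 ± 6.12 CPM (SD, n = 3 each), with adjusted p of 0.0624 and 0.0669 by edgeR. Many of these genes are made by tumour and stromal cells too. Of 6 lymphatic genes 0 passed by edgeR, with 1 at an unadjusted p below 0.05 (all tested genes, 30.7%) and a median of -1.04. That gene, Prox1, a lymphatic factor that neuroendocrine cells also use, had 457 CPM in control 3 and at most 14.7 CPM elsewhere, and Foxc2 overlapped between the groups at an adjusted p of 0.324 by edgeR. Ccl21a had the only positive log2 fold change of the 6, 1.33 (adjusted p = 0.33 by edgeR), and the other 5 were negative. Of 5 genes of activated endothelium, 4 were tested and 0 passed by edgeR, with 2 at an unadjusted p below 0.05 (all tested genes, 30.7%) and a median of -1.47. Vcam1, a leukocyte adhesion molecule, stood at 13.3, 69.5 and 115 CPM in controls, against 10.4 to 12.7 CPM in knockouts, with an adjusted p of 0.0902 by edgeR, and Ackr1, a chemokine receptor of venules, overlapped between the groups at an adjusted p of 0.159. Icam1 and Selp, also tested, overlapped too, with log2 fold changes of -0.02 and -0.41. Icam1 averaged 107 CPM in controls and 106 CPM in knockouts.

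Of 17 other angiogenic ligands 0 passed by edgeR, with 7 at an unadjusted p below 0.05 (all tested genes, 30.7%), 3 higher and 4 lower. Midkine (Mdk), a heparin-binding growth factor, stood at 10.4, 63.9 and 25.7 CPM in controls, against 170, 190 and 160 CPM in knockouts, with an adjusted p of 0.0797 by edgeR, while its relative Ptn stood at 45.9, 21.4 and 689 CPM in controls, against 0.275 to 2.56 CPM in knockouts, with an adjusted p of 0.0678. Of 11 inhibitors of angiogenesis 0 passed by edgeR, with 5 at an unadjusted p below 0.05 (all tested genes, 30.7%), all lower, and the median was -1.82. Vash1 (vasohibin) stood at 12.9, 32.1 and 98.1 CPM in controls, against 5.54 to 8.04 CPM in knockouts, and Sema3a (a repulsive guidance cue) at 7.06, 37.5 and 8.46 CPM and 2.15 to 4.76 CPM, with adjusted p of 0.0780 and 0.113 by edgeR. Among 12 tested markers of pericytes and smooth muscle 0 passed by edgeR, with 4 at an unadjusted p below 0.05 (30.7% of all tested genes), 1 higher and 3 lower. The higher one was Cnn1, a contractile-fibre protein of smooth muscle named here after its values were seen, at 0.660 to 4.93 CPM in controls and 9.41 to 11.5 CPM in knockouts. Notch3, a pericyte receptor, stood at 142, 138 and 64.0 CPM in controls, against 34.7 to 54.1 CPM in knockouts, with an adjusted p of 0.0742 by edgeR. Cspg4 (NG2) had an adjusted p of 0.0964 by edgeR, with 52.3, 137 and 13.2 CPM in controls, against 4.26 to 13.9 CPM in knockouts.

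Markers of other cells were counted in the same way, and edgeR called 0 in each list. At an unadjusted p below 0.05, where 30.7% of all tested genes lay, there were 5 of 6 fibroblast genes, all lower, 2 of 6 leukocyte genes, both lower, 2 of 5 epithelial genes, both higher, 4 of 6 neuroendocrine genes, all lower, 1 of 5 tested platelet genes and 0 of 3 tested red cell genes. Leukocyte markers, mostly Lyz2, summed to 654, 987 and 155 CPM in controls, against 487, 1080 and 564 CPM in knockouts. Red cell markers summed to 169 CPM in control 2 and 6.11 to 53.1 CPM in the other libraries. The part of these cells in the values of the endothelial genes was not tested.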

How the data were processed

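The authors deposited a table of raw counts, 1 row per Ensembl identifier, for 6 libraries, matched to samples by the names in the labels; per the submitters' processing notes, reads were aligned with STAR to mm39, while the sources used here name no counting tool, annotation or strand setting, so overlapping genes are uncertain. The authors' deposited table gives a mean signal, log2 fold changes, a Wald score and p-values per gene, in the columns DESeq2 writes, per the file headers. Symbols came from a table pairing 52073 of 56980 identifiers. Genes were filtered with filterByExpr, leaving 17901, scaled by TMM and tested with edgeR 4.0.16 (quasi-likelihood, robust, two-sided, genotype as the only term; R 4.3.3), with Benjamini-Hochberg adjustment and a threshold of 0.05. The step was tested on simulated counts with the same spread setting for all genes and both groups. The larger spread among these controls was therefore not covered by it. Other settings tried were RLE scaling, upper-quartile scaling, an unfiltered table, 1 CPM in 3 samples, DESeq2 1.42.0, limma voom (3.58.1), each library left out, and the sample number as a block. Exon lengths came from a GRCm38 annotation. For log2 spread, 0.5 CPM was added. All 32 members were described. Beyond them, a list's genes past the threshold were to be named, up to 4, or else the 2 of lowest p; other marker genes were named for their level in a library after values were seen. Members and lists were chosen with earlier results of these data known. Every pair of libraries differed by more than sampling noise. Count-of-0 limits use 3 counts and cover counting error only.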

Additional observations from a re-analysis of the deposited data

How the results depend on the processing

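Over 13 alternatives the count of members past the threshold stayed at 0 in both directions under RLE and upper-quartile scaling, both other filters and the sample block. DESeq2 called 1 higher (Vegfb) and 4 lower, and limma voom 1 higher. With 1 library left out, edgeR called 0 to 1 higher and 0 to 2 lower. The count over all genes, 771, was 465 without the filter, 4642 by DESeq2, 0 with the sample number as a block (4026 at an unadjusted p below 0.05) and 0 to 3209 with 1 library left out, with 0 without knockout 2 or 3 (3372 and 3321 at an unadjusted p below 0.05). Correlations between same-numbered deviations were weak, at 0.0199, 0.00872 and 0.0686, and those between other numbers ran from -0.0853 to 0.0659. Control 2 and knockout 1 correlated best with each other, and each of the other libraries correlated best with its own number. With values this small, whether the sample numbers pair the libraries is not settled. The sign turned for 4 members by limma voom and with the replicate block: Emcn (0.0087 and 0.016), Robo4 (0.16 and 0.17), Tie1 (0.024 and 0.034) and Angpt1 (0.06 and 0.065). With 1 library left out, log2 fold changes crossed zero for Pecam1 (-0.67 to 0.27), Cdh5 (-0.64 to 0.54), Cldn5 (-0.32 to 0.52), Icam2 (-0.0013 to 1.02), Emcn (-0.51 to 0.71), Eng (-1.13 to 0.41), Plvap (-0.87 to 0.35), Mmrn2 (-0.62 to 0.41), Robo4 (-0.65 to 0.77), Sox18 (-0.68 to 0.50), Sox7 (-0.61 to 0.0038), Kdr (-0.95 to 0.30), Tek (-0.44 to 0.33), Tie1 (-0.55 to 0.61), Ramp2 (-0.25 to 0.43), Calcrl (-0.37 to 0.38), Aplnr (-0.23 to 2.30) and Angpt1 (-0.57 to 0.79). The cause of these changes was not tested. Vegfb, Flt1, Fli1, Flt4, Pgf, Apln, Angpt2, Esam, Vwf, Nos3, Erg, Egfl7, Lyve1 and Vegfc kept their sign in all 13. Lyve1 and Vegfc came close to zero, at -0.0013 and -0.032.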
